A study of Mus musculus with 12 samples.

Results

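Nilotinib (AMN107) blocks the ABL tyrosine kinases, and interferon-alpha (IFNa) is a type I interferon. The response described here is the change that IFNa produced in mouse embryonic fibroblasts (MEFs) that were also given AMN107. It was taken from 4 of the 12 arrays of the series, the 2 titled AMN107-IFNa and the 2 titled AMN107, over all probe sets annotated with exactly 1 gene (34945 of 45101). Both groups carried AMN107, and they differed by the 6 h of IFNa that the AMN107-IFNa cells received and the AMN107 cells did not. Titles do not give the order in which the 2 agents were added. The other arrays came in pairs of IFNa without AMN107, DMSO without AMN107 or interferon, AMN107-IFNg and IFNg, where IFNg is interferon-gamma, the type II interferon. The submitters gave no dose of any agent, no length of AMN107 exposure, and no strain, genotype or passage for the MEFs, which were grown in serum-supplemented medium. The titles number the arrays of each group as biological replicates without naming cultures, so p-values measure the spread between these arrays only.

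Type I interferons bind a receptor made of Ifnar1 and Ifnar2, whose kinases Jak1 and Tyk2 phosphorylate the STAT proteins. Stat2 and Irf9 are subunits of the complex ISGF3, which then binds the interferon-stimulated response element (ISRE) in the promoters of antiviral genes. IFNg uses another receptor, and its signal acts mainly through the gamma-activated site (GAS). Many target genes respond to both, and proteins such as Usp18 and the SOCS family damp the signal afterwards.

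The values were probe set signals on a linear scale. Genes whose signal exceeded the median of the array on 2 or more of the 12 arrays were tested, 12188 in all, each through its brightest probe set. Differences are of log2(signal + 8.66), AMN107-IFNa minus AMN107, folds are ratios of signal + 8.66, and SE is the standard error in limma. Every adjusted p below is limma's, after Benjamini-Hochberg adjustment, which ran over the 12188 genes. For a gene's other, dimmer probe sets it ran over the 21244 1-gene probe sets that met the same signal limit. In all cases 0.05 was the threshold. "Rose" and "fell" mean that a gene passed it.

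With IFNa on top of AMN107, 116 genes rose (0.952% of those tested) and 9 fell (0.0738%). The 116 included 68 of the 141 tested members of 12 lists of interferon-related genes. Of 174 tested members of 12 lists for other cell programmes 0 passed, where 1.03% of all tested genes did. In RNA from whole cultures a stronger response of each cell and a response of more cells cannot be told apart. The rises were modest: 9 genes rose at least 2-fold (0.0738%), 66 rose by a log2 of 0.5 to 1, and 41 by less than 0.5. The median rise of the 116 was 0.58, and the median difference of all tested genes was -0.02. For each of the 125 genes that passed, the 2 AMN107-IFNa arrays lay on 1 side of the 2 AMN107 arrays, a pattern that 13.7% of all tested genes showed in the higher direction and 22.7% in the lower. The count of 125 came from a fit of 10 arrays, with the IFNa pair left out because IFNa replicate 2 had lost 5' signal (GAPDH 5'/3' ratio 0.0252). With all 12 arrays sharing 1 estimate of the spread, 31 genes passed, all of them among the 116.

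**Figure D1:**
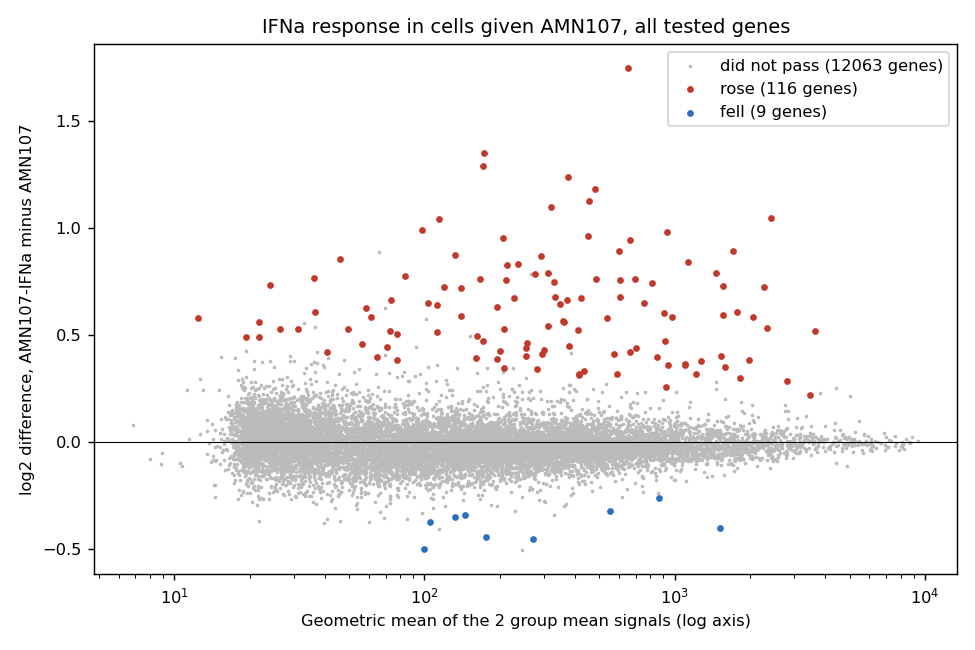
Each point is 1 of the 12188 tested genes. The x axis (log) is the geometric mean of the 2 group mean signals and the y axis the log2 difference, AMN107-IFNa minus AMN107. The 116 genes that rose (red) reach 1.75, and the 9 that fell (blue) reach -0.50.

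The 4 arrays were alike in quality, with median signals of 21.3 to 21.7, 2% trimmed means of 108.4 to 110.1 and GAPDH 5'/3' ratios of 1.12 to 1.16. The SD of the log2 difference between the 2 arrays was 0.133 for AMN107-IFNa and 0.119 for AMN107. The AMN107 arrays differed from each other among the genes that rose. AMN107 replicate 2 lay above replicate 1 in 107 of the 116 (92.2%, against 46.3% of all tested genes), with a median log2 difference of 0.17 (-0.01 over all tested genes). Between the AMN107-IFNa arrays replicate 2 was the higher in 69 of the 116 (median 0.03). Without AMN107 replicate 1, 60 genes rose, 59 of them among the 116, 2 fell and 4 rose at least 2-fold. Without AMN107 replicate 2, 109 rose, 98 of them among the 116, 3 fell and 20 rose at least 2-fold, and without AMN107-IFNa replicate 1, 15 rose at least 2-fold. Fibroblast markers had nearly the same summed signal on all 4 arrays, 7254 and 7066 on the AMN107-IFNa arrays against 7186 and 7229 on the AMN107 arrays. None of the 22 tested markers of 6 cell types (of 45 listed) passed. Thy1 and Ptprc were under the filter.

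Promoters of 4 of the genes with the largest rises are shown to place the ISRE in them. They are the first 4 genes, in order of the rise, whose window from 250 bases before to 50 bases after the gene's start held an ISRE match on either strand, here 2 runs of GAAA with any 2 bases between them. Sequences are RefSeq's on GRCm38.p6, on the gene's own strand. Ifit3 is at chr19:34583279-34583578 (plus), Trim30a at chr7:104446076-104446375 (minus), Gbp2 at chr3:142620413-142620712 (plus) and Gbp7 at chr3:142530086-142530385 (plus). Capitals mark each match, which in all 4 reads as the complement (TTTC runs) on the strand printed.
Ifit3: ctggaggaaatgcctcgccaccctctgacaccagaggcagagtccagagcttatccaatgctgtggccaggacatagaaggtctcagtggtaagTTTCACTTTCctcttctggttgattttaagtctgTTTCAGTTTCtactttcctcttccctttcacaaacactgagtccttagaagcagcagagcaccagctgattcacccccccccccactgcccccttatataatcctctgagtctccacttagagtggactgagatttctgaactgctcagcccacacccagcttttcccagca
Trim30a: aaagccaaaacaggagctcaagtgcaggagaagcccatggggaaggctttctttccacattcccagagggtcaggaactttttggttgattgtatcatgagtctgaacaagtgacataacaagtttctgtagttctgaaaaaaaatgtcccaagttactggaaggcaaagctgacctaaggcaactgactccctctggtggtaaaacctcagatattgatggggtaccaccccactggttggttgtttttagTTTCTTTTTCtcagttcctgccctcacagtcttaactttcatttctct
Gbp2: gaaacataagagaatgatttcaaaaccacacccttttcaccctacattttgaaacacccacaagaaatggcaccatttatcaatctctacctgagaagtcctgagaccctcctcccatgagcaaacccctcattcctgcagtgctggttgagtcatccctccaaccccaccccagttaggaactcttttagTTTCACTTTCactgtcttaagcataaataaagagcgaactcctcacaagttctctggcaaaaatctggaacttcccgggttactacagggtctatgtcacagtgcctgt
Gbp7: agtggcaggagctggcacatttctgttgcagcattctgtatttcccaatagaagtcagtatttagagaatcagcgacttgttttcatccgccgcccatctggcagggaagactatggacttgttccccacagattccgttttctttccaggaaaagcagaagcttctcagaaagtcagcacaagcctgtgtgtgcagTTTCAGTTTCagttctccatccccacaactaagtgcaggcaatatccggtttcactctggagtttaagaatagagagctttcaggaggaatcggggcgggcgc
In Ifit3 the 2 matches began 156 and 122 bases before the start, in Gbp2 59 and in Gbp7 53 bases before it. The match in the Trim30a window printed began 2 bases after it, and the other window of that gene also held a match. The Gbp7 window also held the GAS letters TTCNNNGAA, 106 and 87 bases before the start, apart from the ISRE match. Among genes with a window, 35 of the 96 that rose held an ISRE match (36.5%), as did 3.46% of all tested genes, 3.99% of all genes and 0 of 8 that fell. The GAS letters stood in 18.8% of the 96, in 8.11% of all tested genes and in 5 of the 8 that fell. Windows of Ifi47 and Cmpk2, also among the 5 largest rises, held no ISRE match.

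The receptor and kinase genes did not pass. Of 7 tested members (Ifnar1, Ifnar2, Ifngr1, Ifngr2, Jak1, Jak2 and Tyk2) 0 rose or fell (1.03% of all tested genes passed in either direction), with a median log2 difference of 0.01 and a range of -0.15 to 0.11. Ifnar1 gave signals of 85.9 and 88.7 with AMN107-IFNa against 86.3 and 92.4 with AMN107. Ifnar2 gave 201.1 and 199.4 with AMN107-IFNa against 192.4 and 184.2 with AMN107 (log2 0.09, 95% interval -0.06 to 0.23). The intervals of both genes included 0.

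Among 10 tested signalling factors 3 rose, with a median of 0.13. Irf7, the transcription factor that amplifies type I interferon production, gave 785.5 and 779.5 on the AMN107-IFNa arrays against 404.7 and 523.3 on the AMN107 arrays (log2 0.75, SE 0.10, adjusted p = 0.000316). Irf1, a factor shared with the IFNg response, gave 304.1 and 291.9 with AMN107-IFNa against 222.3 and 212.9 with AMN107 (log2 0.44, SE 0.08, adjusted p = 0.00423). Stat2, a subunit of ISGF3, gave 95.2 and 94.0 with AMN107-IFNa against 47.6 and 66.8 with AMN107 (log2 0.66, SE 0.13, adjusted p = 0.0102). In all 3 the groups were apart, and the AMN107 arrays of Stat2 lay wide of each other. The Stat2 call was lost without AMN107 replicate 1 (adjusted p = 0.318) or either AMN107-IFNa array (0.08 and 0.0667), although a dimmer probe set also passed (log2 0.60, adjusted p = 0.021). The Irf1 call was lost without AMN107 replicate 2 (0.0689) or AMN107-IFNa replicate 1 (0.0626), and without the last array 1 of the 10 factors rose.

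Irf9, the DNA-binding subunit of ISGF3, did not pass. Its signals were 332.5 and 350.4 with AMN107-IFNa against 286.0 and 311.6 with AMN107 (log2 0.19, 95% interval 0.03 to 0.35, adjusted p = 0.646). The other 6 tested factors (Irf2, Irf3, Irf5, Irf8, Batf2 and Stat3) gave differences of -0.10 to 0.15. The probe sets of Irf5 disagreed: the brightest gave -0.10, while a dimmer one, with mean signals of 132.7 with AMN107-IFNa against 75.7 with AMN107, passed (log2 0.76, adjusted p = 0.00411).

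Of 10 tested feedback inhibitors 1 rose, with a list median of 0.02. It was Usp18, which strips ISG15 from proteins and blocks signalling at the type I receptor. Usp18 gave 1920 and 1898 with AMN107-IFNa against 986.4 and 1232 with AMN107, 1.73-fold higher (log2 0.79, SE 0.10, adjusted p = 0.000361). Socs1 and Socs3, inhibitors of JAK kinases, did not pass. Socs1 gave 77.2 and 78.4 with AMN107-IFNa against 74.6 and 72.5 with AMN107 (log2 0.07, 95% interval -0.13 to 0.27), and Socs3 gave 52.97 and 57.6 with AMN107-IFNa against 55.3 and 56.7 with AMN107 (log2 -0.02, 95% interval -0.21 to 0.18). The other 7 (Pias1, Pias4, Ptpn2, Ptpn6, Ptpn11, Cish and Socs2) lay between -0.10 and 0.11.

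In the lists that follow, members named beyond the 4 with the smallest p were chosen after their values were seen. Effectors against viral RNA and nucleotides held the largest rise of all. Of 17 tested members 12 rose (0.952% of all tested genes rose) and 0 fell, with a median log2 difference of 0.58. Ifit3, a partner of Ifit1 in binding foreign RNA, gave 1179 and 1207 with AMN107-IFNa against 297.3 and 410.6 with AMN107, 3.35-fold higher (log2 1.75, SE 0.11, adjusted p = 6.28e-07). Rsad2 (viperin), which makes a chain-terminating nucleotide, gave 3266 and 3644 with AMN107-IFNa against 1424 and 1958 with AMN107, 2.06-fold higher (log2 1.04, SE 0.11, adjusted p = 2.92e-05). Ifit1, which binds RNA that lacks the cap of the host, gave 2280 and 2373 with AMN107-IFNa against 1161 and 1347 with AMN107 (log2 0.89, SE 0.07, adjusted p = 6.35e-06). In each of these 3 the AMN107-IFNa arrays were close together and far above both AMN107 arrays.

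Cmpk2, a mitochondrial nucleotide kinase, was more scattered, with 567.5 and 879.5 on the AMN107-IFNa arrays against 227.6 and 413.0 on the AMN107 arrays (log2 1.18, SE 0.21, adjusted p = 0.00492). The lowest AMN107-IFNa value still exceeded the highest AMN107 value. The call was lost without AMN107 replicate 1 (adjusted p = 0.109) or AMN107-IFNa replicate 2 (0.108), and a dimmer probe set gave 1.18 as well. Members of the 2'-5' oligoadenylate synthetase family, which activate RNase L, rose by 0.49 to 0.67: Oas1a, Oas1b, Oas2, Oas3 and the related Oasl2. The exonuclease Isg20 (log2 0.59) and the nucleotide hydrolase Samhd1 (log2 0.44) also rose. Eif2ak2, the RNA-activated kinase PKR, gave 0.44 with an SE of 0.14 and did not pass, nor did Adar, Apobec3, Oasl1 or Zc3hav1. Without AMN107 replicate 1, 8 of the 17 rose, and the calls lost there included Oas1b (adjusted p = 0.119), Oas2 (0.0728) and Samhd1 (0.104). The Oas1b call was also lost without AMN107 replicate 2 (0.159) or AMN107-IFNa replicate 1 (0.211).

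Among restriction factors and TRIM proteins 17 of 23 tested members rose and 0 fell, with a median of 0.54. Trim30a, a ubiquitin ligase that restrains Toll-like receptor signalling in mice, gave 273.1 and 272.0 with AMN107-IFNa against 90.8 and 124.7 with AMN107, 2.44-fold higher (log2 1.29, SE 0.10, adjusted p = 5.92e-06). Mx2, a dynamin-like antiviral GTPase, gave 159.9 and 177.4 with AMN107-IFNa against 66.9 and 89.2 with AMN107 (log2 1.04, SE 0.14, adjusted p = 0.000561). The torsin relative Tor3a rose by 0.96 (2 other probe sets 0.99 and 0.86), and the nuclear body protein Sp100 by 0.85. A dimmer Sp100 probe set gave 0.05 and did not pass. The membrane proteins Ifitm1 and Ifitm2, which hinder viral entry, gave 0.05 and 0.02 and did not pass. Without AMN107 replicate 1, 11 of the 23 rose.

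The ISG15 and ADP-ribosylation list rose in 7 of 9 tested members, with a median of 0.79. ISG15 is a ubiquitin-like tag put on proteins after interferon. Parp14, a mono-ADP-ribosyltransferase, gave 462.0 and 480.8 with AMN107-IFNa against 187.3 and 248.1 with AMN107, 2.14-fold higher (log2 1.10, SE 0.11, adjusted p = 2.65e-05). A dimmer Parp14 probe set gave 0.32 and did not pass. Parp12 gave 1528 and 1496 with AMN107-IFNa against 742.2 and 951.2 with AMN107 (log2 0.84, SE 0.09, adjusted p = 2.94e-05). The ubiquitin ligase pair Parp9 and Dtx3l rose by 0.76 and 0.78 and the ISG15 ligase Herc6 by 0.82. Ube2l6, the conjugating enzyme for ISG15, gave 0.88 with an SE of 0.23 and did not pass, and Isg15 was not analysed here.

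Of 14 tested RNA and DNA sensors 8 rose, with a median of 0.57. Zbp1, which senses Z-form nucleic acids and can start necroptosis, gave 137.7 and 145.7 with AMN107-IFNa against 61.1 and 73.7 with AMN107 (log2 0.99, SE 0.09, adjusted p = 1.3e-05), and a dimmer probe set gave 0.48. Mndal, of the interferon-inducible p200 family, gave 749.0 and 882.7 with AMN107-IFNa against 372.1 and 506.7 with AMN107 (log2 0.89, SE 0.12, adjusted p = 0.000491). Tlr3, the endosomal receptor for double-stranded RNA, rose by 0.77, and the cytosolic helicases Ddx58 (RIG-I), Ifih1 (MDA5) and Dhx58 (LGP2) rose by 0.56, 0.36 and 0.72. The other probe sets of Ddx58 gave 0.74, which passed, and -0.03, which did not. The adaptors Mavs and Sting1, which carry the sensors' signal, gave -0.03 and 0.03 and did not pass. Without AMN107 replicate 1, 4 of the 14 rose, and the calls lost there included Dhx58 (adjusted p = 0.12) and Ifih1 (0.145).

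All 10 tested interferon-inducible GTPases rose, with a median log2 difference of 0.95, the highest of the 12 interferon lists. These proteins coat and break the vacuoles in which pathogens live. Ifi47, an immunity-related GTPase, gave 284.8 and 278.7 with AMN107-IFNa against 89.9 and 123.3 with AMN107, 2.55-fold higher (log2 1.35, SE 0.12, adjusted p = 7.77e-06). The guanylate-binding protein Gbp2 gave 550.4 and 600.0 with AMN107-IFNa against 196.5 and 289.2 with AMN107, 2.36-fold higher (log2 1.24, SE 0.12, adjusted p = 1.3e-05). Gbp7 gave 654.1 and 696.6 with AMN107-IFNa against 279.6 and 331.4 with AMN107 (log2 1.13, SE 0.09, adjusted p = 5.39e-06). The AMN107-IFNa arrays again lay close to each other, above both AMN107 arrays, and other probe sets of Gbp2 and Gbp7 gave 1.30 and 1.01.

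Gbp3, Gbp2b, Igtp and Irgm2 rose by 0.98, 0.95, 0.94 and 0.83, Irgm1 by 0.68 and Gbp6 by 0.56. Iigp1 was dim, with 23.5 and 26.0 on the AMN107-IFNa arrays against 15.5 and 14.8 on the AMN107 arrays (log2 0.49, SE 0.08, adjusted p = 0.00191). Both AMN107 values of Iigp1 lay under the array medians. All 10 calls held without AMN107 replicate 1 or AMN107 replicate 2, and 9 held without AMN107-IFNa replicate 2, the exception being Gbp6 (adjusted p = 0.0599). Guanylate-binding proteins and p200 proteins have near-identical relatives, and probes can be shared between them.

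**Figure D2:**
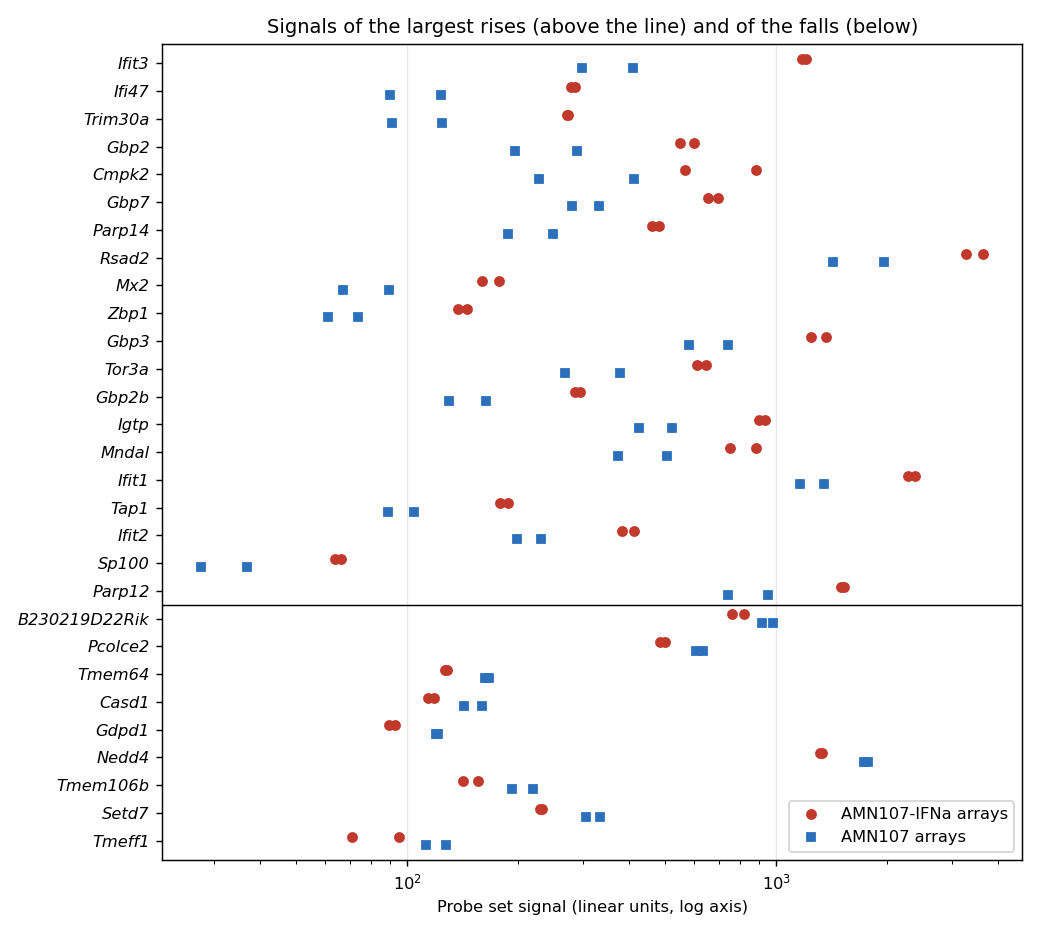
Probe set signals (x axis, linear units drawn on a log axis) of the 20 largest rises, above the line, and of the 9 falls, below it. Circles are the 2 AMN107-IFNa arrays and squares the 2 AMN107 arrays. Only genes whose groups do not overlap were chosen for display. Among them Ifit3 has the widest gap, with 1179 and 1207 against 297.3 and 410.6.

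In MHC class I presentation 6 of 13 tested members rose and 0 fell, with a median of 0.31. Tap1, a subunit of the transporter that brings peptides into the endoplasmic reticulum, gave 187.2 and 178.8 with AMN107-IFNa against 88.6 and 104.2 with AMN107 (log2 0.87, SE 0.09, adjusted p = 2.84e-05). Its 3 other probe sets were under the filter. Its partner Tap2 rose by 0.53, the loading factor Tapbp by 0.60, the immunoproteasome subunit Psmb10 by 0.65, the proteasome activator Psme1 by 0.26 and Nlrc5, which switches on class I genes, by 0.65. The class I chains themselves did not pass: H2-K1 gave 0.23, H2-D1 0.21 and B2m 0.10. A dimmer Tapbp probe set gave 0.34 and did not pass. Without AMN107 replicate 1, 4 of the 13 rose, and without AMN107 replicate 2, 9 rose. The calls of Tap2 and Psme1 were lost without AMN107 replicate 1 (adjusted p = 0.373 and 0.491) or AMN107-IFNa replicate 1 (0.154 and 0.163), and that of Psme1 also without AMN107-IFNa replicate 2 (0.151).

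Chemokines and cytokines rose in 2 of 17 tested members, with a median of 0.14. Cxcl10, which draws T cells, gave 2781 and 3080 with AMN107-IFNa against 1617 and 1935 with AMN107 (log2 0.72, SE 0.07, adjusted p = 1.43e-05). Il15, a growth factor for natural killer and memory T cells, gave 104.1 and 120.2 with AMN107-IFNa against 57.3 and 66.8 with AMN107 (log2 0.77, SE 0.09, adjusted p = 9.2e-05). Il6 gave 38.4 and 53.5 with AMN107-IFNa against 24.9 and 32.8 with AMN107 and did not pass (log2 0.53, SE 0.15, adjusted p = 0.157). Cxcl9, a chemokine known chiefly from IFNg, stayed under the array medians, with 8.37 and 6.26 on the AMN107-IFNa arrays against 6.99 and 5.87 on the AMN107 arrays. The Il6 arrays of the 2 groups did not overlap, those of Cxcl9 did, and Ifnb1 was under the filter.

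Of 10 tested genes for cell death and immune ligands 3 rose, with a median of 0.31. Cd274 (PD-L1), the ligand of a T cell checkpoint receptor, gave 47.7 and 47.0 with AMN107-IFNa against 27.0 and 29.3 with AMN107 (log2 0.61, SE 0.09, adjusted p = 0.00127). Mlkl, the pore-forming protein of necroptosis, gave 781.0 and 755.9 with AMN107-IFNa against 536.6 and 611.1 with AMN107 (log2 0.42, SE 0.07, adjusted p = 0.00208), a call lost without AMN107 replicate 1 (0.0945). Casp4, an inflammatory caspase, passed narrowly (log2 0.49, SE 0.11, adjusted p = 0.0474) and did not pass under 16 of the other settings. Without AMN107 replicate 1, 1 of the 10 rose. The 2 tested Schlafen genes, Slfn2 and Slfn5, did not pass (0.20 and -0.01).

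Over the 12 interferon lists, 68 of 141 distinct tested members rose (48.2%, against 0.952% of all tested genes) and 0 fell. No member had passed the filter on the AMN107-IFNa arrays alone. With all 12 arrays in the fit, those that rose were 6 of 10 GTPases, 8 of 23 restriction factors, 3 of 17 viral RNA effectors, 3 of 9 in the ISG15 list, 2 of 14 sensors, 2 of 17 chemokines, 1 of 13 in MHC class I, 1 of 10 cell death genes and 0 of the signalling factors and feedback inhibitors. The other 12 lists covered NF-kappaB targets, ABL kinases and nilotinib targets, cholesterol and fatty acid synthesis, lysosomes, ER stress and immediate early genes. They also covered cytoskeletal targets, matrix, cell cycle, p53, NRF2 and hypoxia. Of their 174 tested members 0 rose or fell in limma. Among all tested genes 1.03% did, a share at which few of 174 would pass. An unadjusted p under 0.05 was reached by 10 of the 174, and by 366 higher and 376 lower genes of the 12188. Differences of the 174 ran from -0.27 (the cholesterol enzyme Dhcr7) to 0.55 (the mitophagy receptor Bnip3). The medians of these 12 lists lay between -0.08 and 0.07. In a fit of only the AMN107-IFNa and AMN107 arrays, 1 of the 13 hypoxia and glycolysis members rose.

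**Figure D3:**
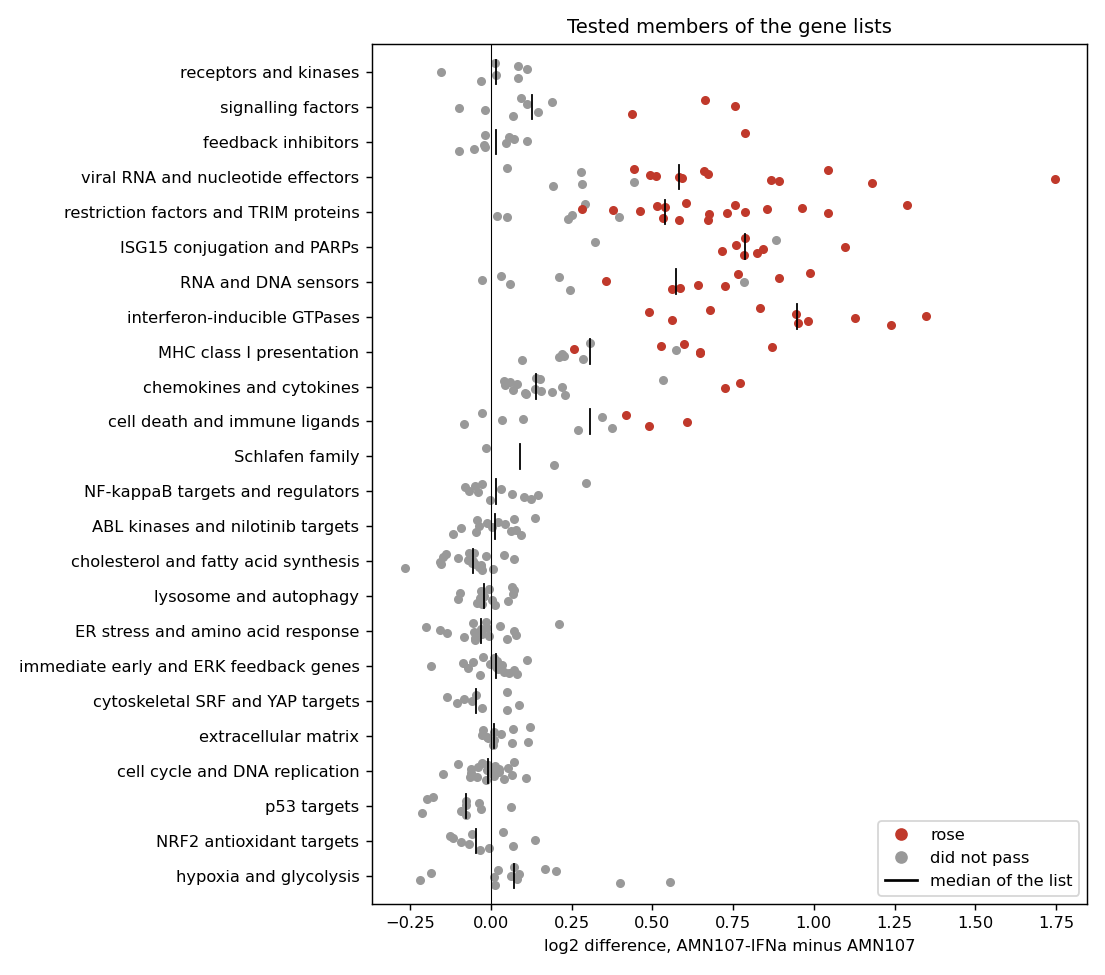
Each point is a tested member of 1 of the 24 gene lists (rows), placed by its log2 difference, AMN107-IFNa minus AMN107. Red members rose, grey ones did not pass, and the tick is the list's median. All 10 GTPases are red (median 0.95), and the 12 lower lists hold no red point.

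Another 48 of the 116 belonged to no list, and those named here were chosen after their values were seen. Trafd1 rose by 0.76, Samd9l, a restriction factor for poxviruses, by 0.76, the sugar-binding protein Lgals9 by 0.74 and the large ubiquitin ligase Rnf213 by 0.73. The insulin receptor substrate Irs1 gave 633.0 and 679.6 with AMN107-IFNa against 417.2 and 455.9 with AMN107 (log2 0.58, SE 0.08, adjusted p = 0.000336). Cd47, the signal that stops macrophages from engulfing a cell, rose by 0.37, and Gch1, which makes the biopterin cofactor, by 0.36. Txnip, an inhibitor of thioredoxin and of glucose uptake, gave 34.6 and 44.2 with AMN107-IFNa against 26.4 and 22.9 with AMN107 (log2 0.52, SE 0.10, adjusted p = 0.0104). Txnip stood out in another way: on the DMSO arrays it gave 88.8 and 94.2, so both AMN107-IFNa values lay below both DMSO values. It was 1 of 5 genes among the 116 that were lower with AMN107 than with DMSO (22.8% of all tested genes were). The Txnip call was lost without AMN107 replicate 2 (adjusted p = 0.176) or AMN107-IFNa replicate 2 (0.223), the Rnf213 call without AMN107 replicate 1 (0.158) or AMN107-IFNa replicate 1 (0.0812), and the calls of Cd47 and Gch1 without AMN107 replicate 1 (0.109 and 0.075).

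The 9 genes that fell did so by small amounts, a log2 of 0.26 to 0.50. Setd7, a lysine methyltransferase, gave 228.7 and 232.8 with AMN107-IFNa against 334.2 and 305.3 with AMN107 (log2 -0.45, SE 0.07, adjusted p = 0.000788). Nedd4, a ubiquitin ligase, gave 1311 and 1333 with AMN107-IFNa against 1777 and 1732 with AMN107 (log2 -0.41, SE 0.06, adjusted p = 0.000562), and its other 2 probe sets gave -0.42, which passed, and -0.16, which did not. Apart from the fit of all 12 arrays these 2 calls held under every setting. The other 7 (Tmeff1, the lysosomal protein Tmem106b, Gdpd1, Casd1, Tmem64, Pcolce2 and B230219D22Rik) each lost the call without at least 1 array. Tmem106b was lost without AMN107 replicate 1 (adjusted p = 0.172) or AMN107-IFNa replicate 2 (0.0924), and 2 dimmer probe sets gave -0.18 and -0.09. Of the 9, 1 was lower and 1 higher with IFNa than with DMSO, against 4.68% and 12.8% of all tested genes.

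The response with AMN107 was set against the response without it, IFNa minus DMSO. Of the 116 genes, 103 were higher with IFNa than with DMSO (12.8% of all tested genes were) and 0 were lower. With quantile normalization that count was 94, and leaving out single arrays gave 70 to 106. The median rise of the 116 was 0.58 with AMN107 against 0.98 without it. In the other direction, 77 genes were at least 2-fold higher with IFNa than with DMSO (0.632%), and 58 of them rose with AMN107, which is 75.3% of the 77 and 50% of the 116. Their median was 0.64 with AMN107 against 1.52 without it. The 77 were chosen for a response of at least 2-fold without AMN107, so their median without it could not be lower than that. The 116 were likewise chosen by the response with AMN107. Neither pair of medians therefore compares the 2 responses on equal terms. Across the 116 genes the 2 responses correlated at 0.647, and across the 77 at 0.617, as a description over genes measured on the same 8 arrays.

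A smaller response with AMN107 than without it passed the test of the difference for 25 genes (0.205%), and a larger one for 0 in limma, where 892 had an unadjusted p under 0.05 in that direction. That test used all 12 arrays. Of the 25, 24 were among the 116, and the exception was Dus4l, a tRNA-modifying enzyme named after its values were seen. The median of this difference over all tested genes was -0.07, and with quantile normalization it was 0.04. Gbp2 and Usp18 had the largest differences. The response of Gbp2 was 1.24 with AMN107 against 4.19 without it (difference -2.95, SE 0.20, adjusted p = 0.000192). That of Usp18 was 0.79 with AMN107 against 3.70 without it (difference -2.92, SE 0.32, adjusted p = 0.0035). The order of these 2 genes depended on the added signal: with 32 in place of 8.66 Usp18 had -2.61 and Gbp2 -2.29. Gbp2b, Mndal, Gbp3 and Oasl2 differed by -2.73, -2.48, -2.36 and -2.30. On the DMSO arrays Gbp2b was dim, with 22.3 and 17.0, both under the array medians. Its difference was -3.12 with 1 added and -2.04 with 32 added. With 32 added, Mndal (-2.20) and Gbp3 (-2.18) differed by more than Gbp2b. The Usp18 call was lost in a fit of the 8 arrays compared (adjusted p = 0.0561), and the Oasl2 call there (0.0711), without DMSO replicate 1 (0.0587) and without AMN107-IFNa replicate 1 (0.0558).

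**Figure D4:**
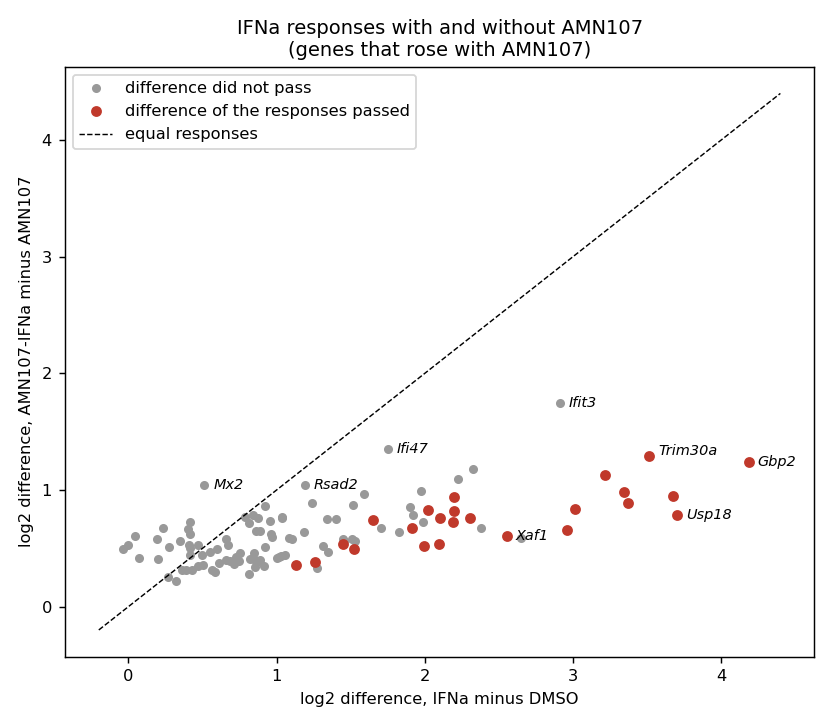
Each point is 1 of the 116 genes that rose. The x axis is the log2 difference IFNa minus DMSO and the y axis the log2 difference AMN107-IFNa minus AMN107, with equal responses on the dashed line. Of the 116, 99 lie below the line, and the 24 with a passing difference (red) include Gbp2 at 4.19 and 1.24.

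How many genes passed this difference depended on single arrays. It was 80 without IFNa replicate 2 (1 of them larger with AMN107), 5771 without IFNa replicate 1 (so that the 5'-depleted array is the whole IFNa group), 11 and 14 without DMSO replicates 1 and 2, 13 without AMN107 replicate 2, 11 and 14 without AMN107-IFNa replicates 1 and 2, and 8 in a fit of the 8 arrays alone.

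This difference is computed from the levels in the 4 groups, which are given next. All 25 genes were already higher with AMN107 than with DMSO in cells without interferon (32.2% of all tested genes were), and so were 99 of the 116. These counts share the AMN107 arrays with the response itself, and both the AMN107 and DMSO arrays with the difference. They are given as levels only. Gbp2 gave 550.4 and 600.0 with AMN107-IFNa and 196.5 and 289.2 with AMN107, while without the drug it gave 555.5 and 584.2 with IFNa and 22.5 and 23.6 with DMSO. The 2 groups given IFNa reached the same range (log2 0.01, AMN107-IFNa minus IFNa, 95% interval -0.31 to 0.33, adjusted p = 0.962), and the 2 groups without it stood far apart.

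That pattern was shared by part of the 25. Trim30a gave 273.1 and 272.0 with AMN107-IFNa against 267.4 and 354.3 with IFNa (log2 -0.17, 95% interval -0.50 to 0.16). Gbp3 gave 1244 and 1365 with AMN107-IFNa against 1280 and 1437 with IFNa (log2 -0.06, 95% interval -0.33 to 0.22). Mndal gave 749.0 and 882.7 with AMN107-IFNa against 864.4 and 863.4 with IFNa (log2 -0.09, 95% interval -0.42 to 0.25). In these 3 genes the arrays of AMN107-IFNa and IFNa overlapped, and each interval holds 0.

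Other genes ended higher in AMN107-IFNa cells than in IFNa cells. Ifit3 gave 1179 and 1207 with AMN107-IFNa against 240.8 and 282.3 with IFNa (log2 2.16, adjusted p = 1.21e-05). Rsad2 gave 3266 and 3644 with AMN107-IFNa against 960.4 and 833.9 with IFNa (log2 1.94, adjusted p = 1.88e-05). Ifit1 (log2 1.51), Igtp (1.18) and Cxcl10 (1.19) went the same way. In Ifit3, Rsad2 and Igtp both AMN107 arrays, without interferon, already lay above both IFNa arrays. Socs3 ran opposite, with 52.97 and 57.6 on the AMN107-IFNa arrays against 106.3 and 139.1 on the IFNa arrays (log2 -1.03, adjusted p = 0.000534). Socs3 had not passed as higher with IFNa, either against DMSO or, with AMN107 present, against AMN107 (log2 -0.02).

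Of the 116, 53 were higher in AMN107-IFNa than in IFNa cells (11.3% of all tested genes were) and 14 lower (14.8%), and the other 49 did not pass. Without IFNa replicate 2 these counts were 71 and 19, and without AMN107-IFNa replicate 1 they were 40 and 7. Among the 14 lower was Dhx58, with 158.0 and 155.1 on the AMN107-IFNa arrays against 240.9 and 266.9 on the IFNa arrays (log2 -0.67, adjusted p = 0.00775). The double-stranded RNA sensor Ifih1 (log2 -0.36) and Oas2 (-0.52) were also lower. The Dhx58 call was lost without AMN107-IFNa replicate 1 (adjusted p = 0.0508), and the Ifih1 call without either AMN107-IFNa array (0.056 and 0.0522). Of the 25 genes with a smaller response, 9 ended higher with AMN107-IFNa than with IFNa, 5 lower, and 11 did not pass.

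**Figure D5:**
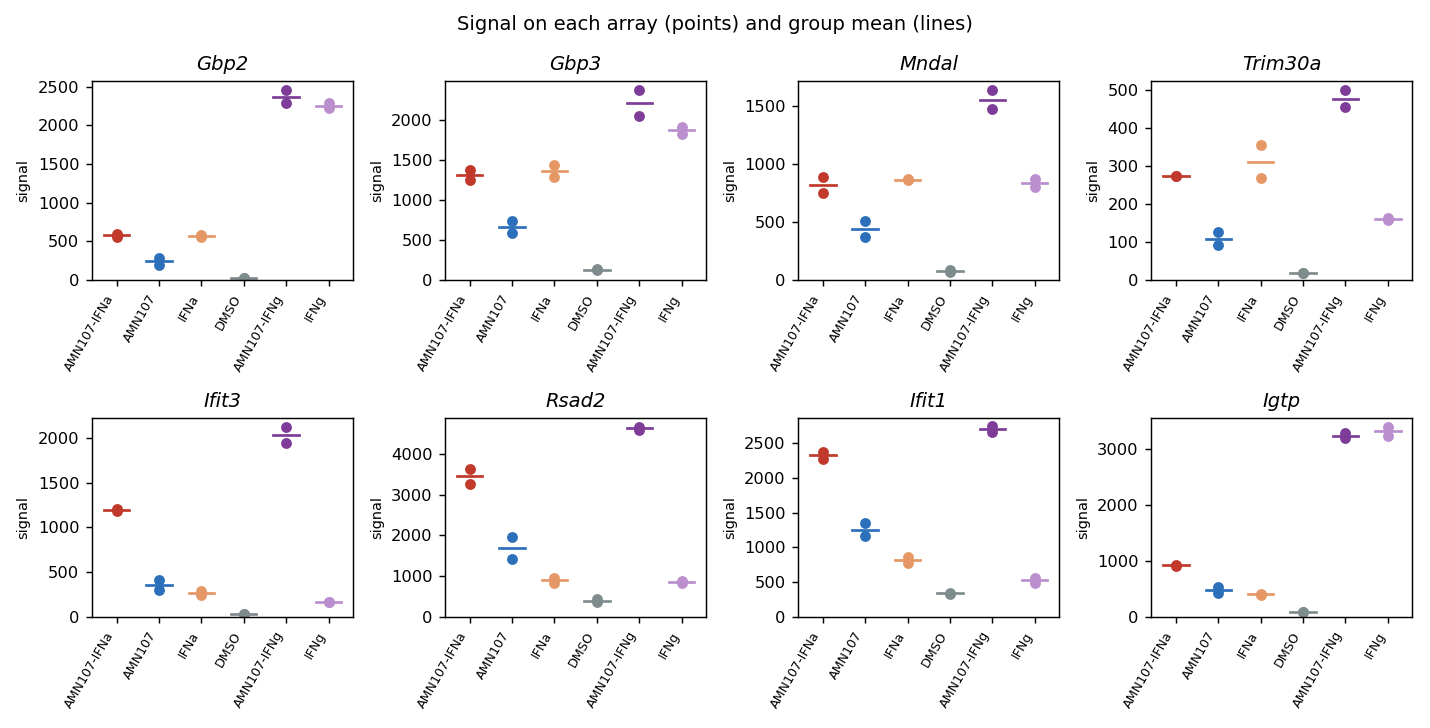
Signals (y axis, linear, from 0) of 8 genes on the 2 arrays of each of the 6 groups, points for arrays and lines for group means. In the upper row AMN107-IFNa and IFNa lie at like levels (Gbp2 550.4 and 600.0 against 555.5 and 584.2). In the lower row AMN107-IFNa lies above IFNa (Ifit3 1179 and 1207 against 240.8 and 282.3).

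Set against IFNg in AMN107-treated cells, IFNa left many interferon targets at lower signals. Between AMN107-IFNa and AMN107-IFNg, 53 genes were higher with AMN107-IFNa (0.435%) and 374 lower (3.07%), 61 of the 374 at least 2-fold. Of the 116, 67 were lower with AMN107-IFNa than with AMN107-IFNg and 0 higher. Against the shared AMN107 arrays 113 of the 116 were also higher with IFNg (4.81% of all tested genes were), the exceptions being Me3, Oas1c and Sfxn2, named after their values were seen. Iigp1 and Cxcl9 stood farthest apart. Iigp1 gave 23.5 and 26.0 on the AMN107-IFNa arrays against 1485 and 1466 on the AMN107-IFNg arrays (log2 -5.47, SE 0.08, adjusted p = 4.84e-17). Cxcl9 gave 8.37 and 6.26 with AMN107-IFNa against 634.3 and 517.2 with AMN107-IFNg (adjusted p = 3.84e-14). Both AMN107-IFNa signals of Cxcl9 lay under the added 8.66, so the size of its difference is set by that constant: it was -5.19 on the scale used, -6.12 with 1 added and -3.94 with 32 added. For Iigp1 the last 2 were -5.84 and -4.73. Tubb3, a tubulin best known from neurons, gave 73.8 and 70.6 with AMN107-IFNa against 692.2 and 572.5 with AMN107-IFNg (log2 -2.98), and it was 78.5 and 86.7 with AMN107. So Cxcl9 and Tubb3 passed against IFNg without having passed against AMN107 alone.

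Gbp2b (log2 -2.93), the chemokine Cxcl11 (-2.73) and the transcription factor Batf2 (-2.70) completed the 6 largest differences in that direction. Irf1 gave 304.1 and 291.9 with AMN107-IFNa against 1288 and 1255 with AMN107-IFNg (log2 -2.06, SE 0.08, adjusted p = 2.41e-11). All 10 GTPases and 9 of 13 MHC class I members were lower with AMN107-IFNa. Some type I effectors were not: Usp18 gave 1920 and 1898 with AMN107-IFNa against 1884 and 1688 with AMN107-IFNg (log2 0.10, SE 0.10, adjusted p = 0.866), and Ifit1, Mx2, Lgals9 and Oas1a also did not pass.

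The genes higher with AMN107-IFNa than with AMN107-IFNg differed by at most 0.71. The plasminogen activator Plat gave 197.5 and 243.1 with AMN107-IFNa against 127.7 and 134.5 with AMN107-IFNg (log2 0.71, SE 0.09, adjusted p = 5.92e-05). Its level with AMN107 alone was 210.1 and 224.0, inside the AMN107-IFNa range. The prostaglandin synthase Ptgs2 (0.58), the Fc receptor Fcgr3 (0.50), the receptor partner Ramp3 (0.48), Phlda2 (0.47) and the growth arrest gene Gas1 (0.46) followed. With all 12 arrays in the fit, 3 genes were higher with AMN107-IFNa and 168 lower. The Plat call held there. Those of Ptgs2, Fcgr3, Ramp3, Phlda2 and Gas1 were lost (adjusted p = 0.52, 0.108, 0.339, 0.722 and 0.0644). The comparison gave 280 genes in all without AMN107-IFNa replicate 1, 267 without replicate 1 of AMN107-IFNg and 260 without its replicate 2, and the Fcgr3 call was lost without AMN107-IFNa replicate 2 (adjusted p = 0.217) or either AMN107-IFNg array (0.0708 and 0.186), as was the Gas1 call without AMN107-IFNg replicate 1 (0.084).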

How the data were processed

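RNA of MEFs was measured on 12 Affymetrix expression arrays, 2 per group. The deposited values are probe set signals, a linear intensity, made with MAS5 per the submitters' processing notes; its version and scaling are not given in the sources used here. They were taken here as log2(signal + 8.66), 8.66 being the mean over arrays of the 25th percentile, with no further normalization. Of the probe sets, 64 controls were left out, 932 carried several genes and 9160 none; 34741 symbols were looked up by gene ID in RefSeq's table of GRCm38.p6 (0 changed) and 204 kept the annotation's symbol. Models with 1 mean per group were fitted in R 4.3.3 with limma 3.58.1 (lmFit, eBayes with a trend), two-sided: on 10 arrays, without the IFNa pair, for AMN107-IFNa against AMN107 and against AMN107-IFNg, and for AMN107 against DMSO, and on 12 for comparisons that use the IFNa arrays. Precision is limited by having 2 arrays per group. The fit was tested on simulated data.

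The comparison, the 24 gene lists and 6 marker lists, and the exclusion of the IFNa pair were chosen with earlier results of these data known. The comparison of AMN107-IFNa with IFNa was added after the values were seen. Genes were named by a rule: the 20 largest rises and up to 10 largest falls with groups that do not overlap, up to 4 members per list by p, all tested receptors, signalling factors and feedback inhibitors, and the 6 largest differences per direction in the other comparisons; other list members and genes named were chosen after their values were seen. The labels do not tie replicate numbers across groups. The deviations of same-numbered AMN107-IFNa and AMN107 arrays correlated at 0.312 over genes, with 2 numbers only, so no pairing was used. Alternatives were other scalings, added signals, filters, probe set choices, fits and leaving out each array.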

Additional observations from a re-analysis of the deposited data

Results flagged for a closer look

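Among the genes named by the rule, 12 had an IFNa response that differed between cells with and without AMN107 by the test of the difference itself (limma, all 12 arrays), each smaller with AMN107. The log2 differences, response with AMN107 minus response without it, were -2.95 for Gbp2, -2.92 for Usp18, -2.73 for Gbp2b, -2.48 for Mndal, -2.36 for Gbp3, -2.30 for Oasl2, -2.23 for Trim30a, -2.18 for Parp12, -2.09 for Gbp7, -1.95 for Xaf1, -1.55 for Parp9 and -1.25 for Igtp. All 12 were already higher with AMN107 than with DMSO, but the same AMN107 and DMSO arrays enter the difference, so this is given as a level only. Without IFNa replicate 2, the array with 5' signal loss, the 12 differences were -2.91 to -1.30. Without IFNa replicate 1, which leaves the 5'-depleted array as the whole IFNa group, they were -3.34 to -1.20. In a limma fit of the compared groups alone the Usp18 and Oasl2 calls were lost (adjusted p = 0.0561 and 0.0711).

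Probe sets without a single annotated gene lie outside the comparisons above. Of 3109 past the filter, 20 were higher and 2 lower with AMN107-IFNa than with AMN107 (limma, adjusted over these and the 1-gene probe sets past the filter).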

How the results depend on the processing

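None of the 125 calls of AMN107-IFNa against AMN107 changed direction with other scalings or added signals or without single arrays (gene by gene, added after seeing the data). Of them 64 missed the threshold without AMN107 replicate 1, 24 without AMN107 replicate 2, 30 and 39 without AMN107-IFNa replicates 1 and 2, and 1 to 11 otherwise. Calls on the genes chosen by the naming rule stayed past the threshold 1433 times over all settings, missed it 124 times and did not change direction. Of 68 calls against IFNa (Socs3 and genes that rose) 21 and 19 missed it without AMN107-IFNa replicates 1 and 2, and none changed direction. AMN107-IFNa against AMN107 gave 125 genes, 31 with all 12 arrays, and 62 to 137 when single arrays were left out. At least 2-fold changes numbered 9, 15 over all probe sets with 1 gene and 4 to 20 without single arrays. The difference of the responses gave 25 genes, 8 in a fit of the compared groups, 11 to 5771 without single arrays and 98 (5 larger and 93 smaller with AMN107) without IFNa replicate 2 and both IFNg groups, a setting added after seeing the data. AMN107-IFNa against AMN107-IFNg gave 427 genes, 171 with all 12 arrays and 260 to 484 without single arrays. With the replicate number as a block these 4 counts were 117, 9, 25 and 423, and no count moved by over 1.5 times; the labels do not pair the arrays. Among all scalings, filters, added signals and fits not listed here the 4 counts stayed within 1.5 times. No probe detection call was used, so values of dim genes such as Iigp1 and Cxcl9 rest on signals near or under the array medians.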
